A study of Mus musculus with 10 samples.

Results

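TRBV29 is the mouse T cell receptor beta-chain variable gene whose product is known as Vbeta7. The receptors described here were all clonotype entries, in the repertoire tables of 10 libraries, that were named TRBV29 and whose CDR3 (the hypervariable loop that touches the peptide) ended in 1 of the residue motifs that the mouse TRBJ genes encode. They numbered 6331 of 387286 entries in the whole series, or 3.28% of the 193012 beta-chain (TRB) entries, and held 9830 of 266347 TRB counts. All 6331 CDR3s were in frame and without a stop codon. Keeping only CDR3s with a J end selects for this, and a CDR3 does not show the rest of the V gene. The RefSeq annotation lists Trbv29 as a V segment pseudogene, at chr6:41271403-41271881 (GRCm38). Another 506 entries named TRBV29 had no beta-chain J end and were left out. Measured values chose this gene: it was picked because its share of distinct TRB clonotypes was lower in CNS4KO than in CNS4Flox in these libraries, so that share and the clone sizes that follow from it are given as descriptions, with no test.

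The libraries came from regulatory T cells of the spleen, a T cell lineage that holds back immune responses and is defined by the transcription factor Foxp3. Per the labels, 5 libraries were from CNS4KO mice, which lack the Foxp3 enhancer CNS4, and 5 were from CNS4Flox mice, in which that enhancer is flanked by loxP sites; the labels set the second group down as WT. The cells were used straight after isolation with no treatment. Age, further alleles, and whether a library was 1 animal or a pool are not known from the labels, so p-values measure the spread between libraries. The tables list receptors only, so Foxp3 and other markers of the labelled cell type could not be checked in them.

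A T cell builds its beta chain by joining a V, a D and a J gene segment. Bases are trimmed from the segment ends and untemplated bases are inserted at the joints, so a CDR3 nucleotide sequence nearly always marks the descendants of a given rearrangement, called a clonotype. The TRBD1 gene lies before the TRBJ1 genes and TRBD2 lies between the TRBJ1 and TRBJ2 clusters, so TRBD2 ordinarily joins only TRBJ2 genes. In mice, Vbeta7 is, with Vbeta8 and Vbeta2, a frequent beta chain of invariant NKT cells, which see lipids on CD1d, and it is among the chains that can react with the Mls-1a superantigen of an endogenous mammary tumour virus.

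The TRBV29 CDR3s had a shared start and varied middles. Of the 6331 entries, 98.2% began with Cys-Ala-Ser and 80.8% with Cys-Ala-Ser-Ser. The fifth residue was leucine in 37.2% (23.2% in the other TRBV genes), serine in 11.7% (3.75%) and phenylalanine in 10.1% (2.93%). The CDR3s ran from 6 to 25 residues, with a median of 14. Below are CDR3 nucleotide sequences, 5′ to 3′, as the tables give them. Capitals mark the bases between the parts matched to the V gene and to the J gene, that is, the D segment with any inserted bases. The first 4 encode the same amino acid sequence, the TRBV29 clonotype found in most libraries (public clonotype A, joined to TRBJ2-7), and are shown because the same protein loop was built from both D genes. The next 3 encode public clonotype B, all named with TRBD1, joined to TRBJ2-1 and found in 4 CNS4KO libraries and in 0 CNS4Flox libraries. That split rests on 1 to 3 counts per library. The last 4 are the largest clonotypes of the libraries in which a clonotype reached a count above 40.
A with TRBD1, CNS4Flox 2 and CNS4Flox 3: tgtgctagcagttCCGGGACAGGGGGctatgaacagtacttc
A with TRBD2, CNS4Flox 5: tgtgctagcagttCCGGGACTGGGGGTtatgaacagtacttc
A with TRBD2, CNS4Flox 4: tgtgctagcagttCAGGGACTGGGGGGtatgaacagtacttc
A with TRBD2, CNS4KO 5: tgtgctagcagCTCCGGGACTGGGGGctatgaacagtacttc
B, CNS4KO 1 and CNS4KO 2: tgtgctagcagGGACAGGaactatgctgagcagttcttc
B, CNS4KO 4: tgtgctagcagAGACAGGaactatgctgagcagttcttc
B, CNS4KO 3: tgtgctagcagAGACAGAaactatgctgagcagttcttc
largest in CNS4KO 4, TRBJ1-2: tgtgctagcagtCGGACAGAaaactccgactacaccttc
largest in CNS4KO 3, TRBJ2-4: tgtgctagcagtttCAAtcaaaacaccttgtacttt
largest in CNS4KO 1, TRBJ2-5: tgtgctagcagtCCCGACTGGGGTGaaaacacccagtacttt
largest in CNS4Flox 3, TRBJ2-2: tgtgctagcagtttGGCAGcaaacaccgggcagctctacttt

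The libraries held between 19199 and 34833 TRB counts, so that 578 to 1348 counts and 408 to 862 distinct nucleotide clonotypes per library were TRBV29. A pair of libraries stood apart before any comparison: CNS4KO 5 and CNS4Flox 3 shared 39 TRBV29 nucleotide clonotypes, against 0 to 6 in each of the other 44 pairs, and 821 TRB nucleotide clonotypes in all against 96 to 262. These libraries belong to opposite groups, and the TRBV29 measures were also computed without both.

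TRBV29 was a mid-to-low abundance beta gene in every library, ranking between 13 and 16 of 22 TRBV genes by counts and between 13 and 17 by distinct clonotypes. By counts it made up 3.96%, 3.01%, 3.76%, 3.41% and 3.43% of TRB in CNS4KO 1 to 5 and 4.06%, 3.82%, 4.09%, 3.54% and 3.70% in CNS4Flox 1 to 5. The groups overlapped, with 3 of the 5 CNS4KO libraries below every CNS4Flox library. The group means were 3.52% ± 0.364 and 3.84% ± 0.234 (SD, n = 5 each). The 95% Wilson interval was 2.78% to 3.26% for the lowest library, CNS4KO 2, and 3.88% to 4.31% for the highest, CNS4Flox 3. These intervals did not overlap. Such intervals cover counting error only, since counts from amplified cDNA need not be independent molecules. In bulk RNA a lower share of counts can mean fewer cells or less receptor RNA per cell, and these cannot be told apart.

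With each distinct clonotype counted once, the shares were 3.16%, 2.96%, 3.09%, 2.85% and 3.02% in CNS4KO 1 to 5 and 3.77%, 3.52%, 3.40%, 3.41% and 3.52% in CNS4Flox 1 to 5. The groups did not overlap on this scale, which is the value that chose the gene. The means were 3.02% ± 0.119 and 3.53% ± 0.148 (SD, n = 5 each), a CNS4KO to CNS4Flox ratio of 0.855. Without CNS4KO 5 and CNS4Flox 3 they were 3.01% and 3.56%, and by counts 3.54% and 3.78%. The largest clonotypes bear on the share of counts. With the largest TRBV29 clonotype of each library set aside, the CNS4KO libraries averaged 3.22% ± 0.331 of TRB counts against 3.78% ± 0.202 (SD, n = 5 each), and 4 of 5 CNS4KO libraries lay below every CNS4Flox library. Setting it aside lowers the TRBV29 share by construction, most where that clonotype is largest. The other TRBV genes kept their largest clonotypes, so these values are a description only.

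**Figure D1:**
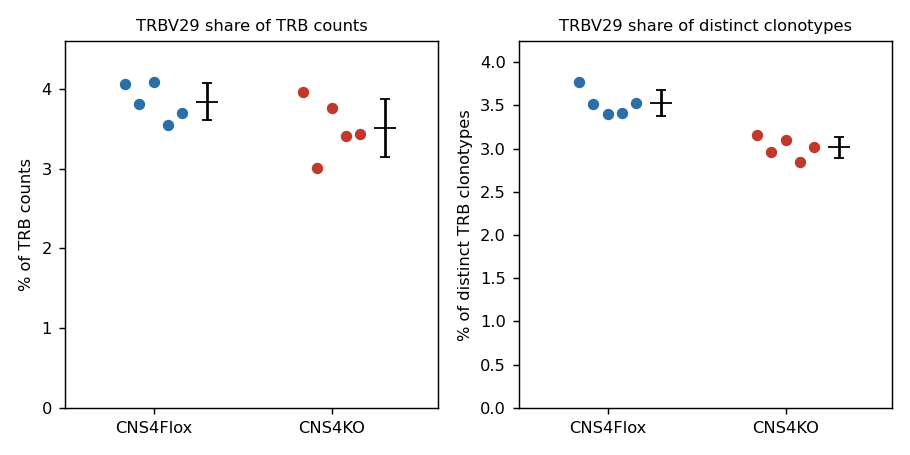
TRBV29 as a percentage of TRB counts (left) and of distinct TRB clonotypes (right), 1 point per library (5 CNS4Flox, blue; 5 CNS4KO, red), with mean and SD as bars. By counts the groups overlap; by distinct clonotypes the CNS4KO libraries, at 2.85% to 3.16%, all lie below the CNS4Flox libraries, at 3.40% to 3.77%, which is the difference the gene was chosen for.

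TRBV29 clonotypes were larger on average in CNS4KO, as were those of the other TRBV genes. Mean counts per TRBV29 clonotype were 2.11, 1.42, 1.86, 1.99 and 1.59 in CNS4KO 1 to 5 and 1.25, 1.37, 1.62, 1.25 and 1.28 in CNS4Flox 1 to 5. The ranges overlapped through CNS4Flox 3, which lay above CNS4KO 2 and CNS4KO 5. The other CNS4Flox libraries lay below every CNS4KO library. The means were 1.79 ± 0.286 and 1.35 ± 0.157 counts for TRBV29, and 1.52 ± 0.134 and 1.23 ± 0.0685 counts for the other TRBV genes (SD, n = 5 each). Without CNS4KO 5 and CNS4Flox 3 the TRBV29 means were 1.84 and 1.28 counts. In all 10 libraries the TRBV29 clonotypes were on average larger than the other TRBV clonotypes pooled, by a ratio of 1.02 to 1.27. Such a difference was not particular to TRBV29. In CNS4KO, TRBV30 held 1.45% of counts against 0.995% of distinct clonotypes, and TRBV23 held 2.55% against 1.89%. Other genes went the other way, such as TRBV13-2 (4.92% against 6.18%).

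Most TRBV29 clonotypes were seen at a count of 1: 4690 of the 6331 entries. Per CNS4KO library such clonotypes made up 68.0% ± 7.39, and per CNS4Flox library 79.2% ± 3.46 (SD, n = 5 each). In the other TRBV genes they made up 74.6% ± 4.15 and 84.3% ± 3.05 (SD, n = 5 each), also lower on average in CNS4KO. The 10 largest clonotypes held 18.3% ± 6.05 of TRBV29 counts against 8.19% ± 4.04 (CNS4KO, then CNS4Flox; SD, n = 5 each).

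The largest TRBV29 clonotype had 92, 15, 94, 207 and 39 counts in CNS4KO 1 to 5 and 16, 13, 42, 6 and 8 counts in CNS4Flox 1 to 5. In CNS4KO 4 it alone held 17.4% of the TRBV29 counts, and in CNS4KO 3 and CNS4KO 1 it held 9.93% and 8.61%. The other libraries were led by clonotypes of at most 3.52% of their TRBV29 counts. Each of the 10 largest clonotypes had its own nucleotide sequence, and 0 of the 10 were found in another library as nucleotides. The dominant receptors of the 5 CNS4KO libraries used 4 different J genes (TRBJ2-5, TRBJ2-7, TRBJ2-4 and TRBJ1-2, with TRBJ2-7 in CNS4KO 2 and CNS4KO 5). As counted here, the number of inserted bases ran from 0, in the clonotype of CNS4KO 3, to 11, in that of CNS4Flox 2. The count takes 1 base past the listed end of the D match as D, so it can miss an inserted base.

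Depth differed between libraries, so each was also thinned to 578 TRBV29 counts, the number in CNS4KO 2. At that depth CNS4KO 1 to 5 held 340, 408, 360, 352 and 427 TRBV29 clonotypes and CNS4Flox 1 to 5 held 492, 482, 427, 483 and 479. The ranges met at CNS4KO 5 and CNS4Flox 3, the pair with shared sequences, and otherwise lay apart. The means were 377 ± 38.0 and 473 ± 25.9 clonotypes, and clonotypes seen at a count of 1 were 76.4% ± 3.82 and 85.3% ± 1.32 (SD, n = 5 each). For this last value the groups did not overlap. Values at equal depth were not computed for the other TRBV genes, so none of these is shown to be particular to TRBV29.

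**Figure D2:**
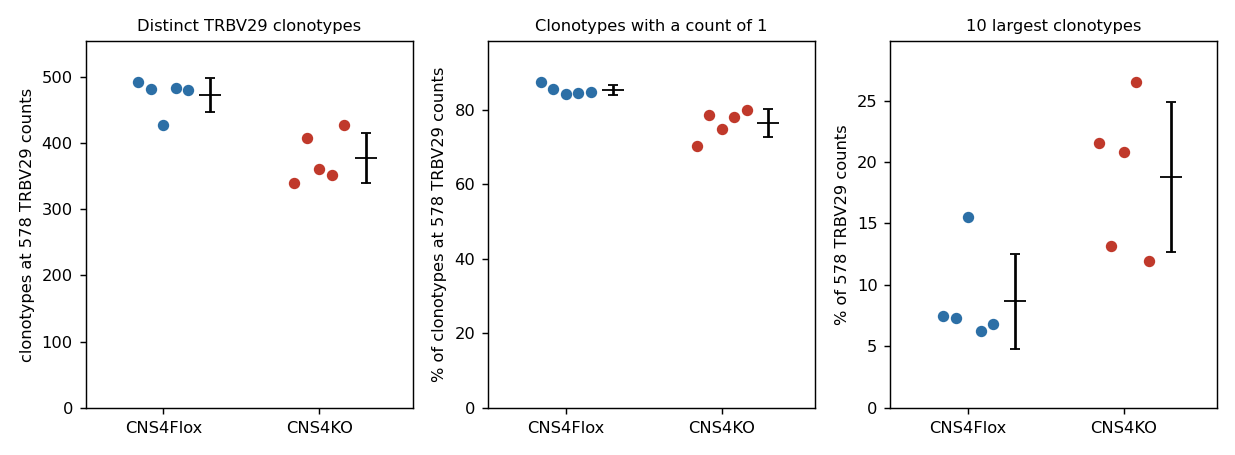
TRBV29 repertoires thinned to 578 TRBV29 counts per library: distinct clonotypes (left), the percentage of clonotypes with a count of 1 (middle) and the percentage of counts in the 10 largest clonotypes (right), 1 point per library, with mean and SD. On average CNS4KO libraries have fewer clonotypes and a smaller share with a count of 1 (76.4% against 85.3%), and CNS4Flox 3 stands above the other CNS4Flox libraries in the right panel, at 15.6%. The other TRBV genes are not shown.

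TRBV29 receptors were largely private to a library. Of the 5892 distinct amino acid clonotypes, 5544 (94.1%) were found in 1 library, 304 in 2, 38 in 3, 5 in 4 and 1 in 5. Per library, 8.37% to 16.2% of the TRBV29 amino acid clonotypes were found in at least 1 other library. The highest of these was CNS4KO 5, and with CNS4Flox 3 set aside it came to 10.7%.

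Public clonotype A had 10 counts in total, spread over CNS4KO 5 (2 counts), CNS4Flox 2 (1), CNS4Flox 3 (3), CNS4Flox 4 (2) and CNS4Flox 5 (2). It was the TRBV29 member of the 666 TRB amino acid clonotypes found in at least 5 libraries, and its fitted log2 fold change was -1.84 (SE 1.20, adjusted p = 0.920 in edgeR). Across all 666, 0 (0%) were called in edgeR and 0 in DESeq2, and clonotype A had an unadjusted p of 0.126. Its unadjusted edgeR p was below 0.05 without CNS4KO 5, the 1 CNS4KO library that held it. The same was seen without both CNS4KO 5 and CNS4Flox 3, and clonotype A was not called in either fit. Both fits leave out its only CNS4KO library, so the omission itself favours a low p. Of 4634 clonotypes found in at least 3 libraries, 0 (0%) were called in edgeR and 573 (12.4%) had an unadjusted p below 0.05. TRBV29 made up 44 of these 4634, of which 0 were called and 9 (20.5%) had such a p. Whether these shares differ was not tested. A clonotype of 3 libraries can pass this filter through 1 group alone, which favours low p-values. Among the 666, by comparison, 37 (5.56%) had an unadjusted edgeR p below 0.05. Each count of clonotype A is 3 or less, which leaves little room to detect a difference.

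Public clonotype B had 1, 3, 2 and 1 counts in CNS4KO 1 to 4 and was not detected in the 5 CNS4Flox libraries or in CNS4KO 5. It was 1 of 5 TRBV29 clonotypes found in 4 libraries. It did not enter the fit over clonotypes in at least 5 libraries and was not called in the fit over those in at least 3. How many other TRB clonotypes of 4 libraries split this way was not counted. Clonotypes C (TRBJ2-5), D (TRBJ2-3), E (TRBJ2-5) and F (TRBJ2-4) were each found in 4 libraries, with 8, 7, 6 and 5 counts in total. C was found in 3 CNS4KO libraries and 1 CNS4Flox library, E in the same numbers, and D and F in 2 of each. The 6 public clonotypes were each encoded by 2 to 4 nucleotide sequences with 0 to 4 inserted bases as counted here.

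No difference in sharing was detected between pairs within CNS4KO and pairs within CNS4Flox. At 578 TRBV29 counts per library the mean Jaccard index (shared amino acid clonotypes over all clonotypes of the pair) was 0.00509 within CNS4KO, 0.00588 within CNS4Flox and 0.00571 between the groups. The between-group mean is raised by the pair CNS4KO 5 and CNS4Flox 3, at 0.0267, against at most 0.00784 in the other 24 between-group pairs. The difference between the within-group means, -0.000797, did not pass an exact two-sided permutation test over libraries (p = 0.706, adjusted p = 0.942 over 8 measures). The 39 nucleotide clonotypes shared by CNS4KO 5 and CNS4Flox 3 were 5.60% and 4.69% of the TRBV29 clonotypes of these libraries and held 82 and 136 counts there. Of the 39, 22 had a count of 1 in CNS4KO 5 and 14 had a count of 1 in CNS4Flox 3.

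**Figure D3:**
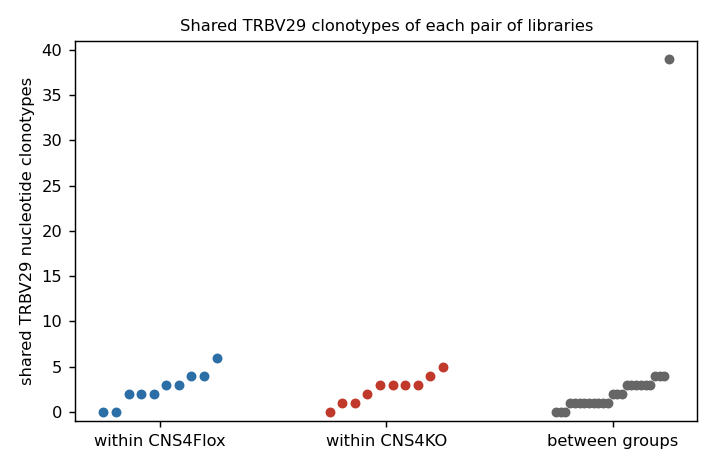
Number of TRBV29 nucleotide clonotypes shared by each pair of libraries, 1 point per pair, for the 10 pairs within CNS4Flox, the 10 within CNS4KO and the 25 between the groups. The pair CNS4KO 5 and CNS4Flox 3 lies at 39, and the other pairs lie between 0 and 6.

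The rearrangements themselves were compared between the groups on measures that the choice of the gene did not use, each distinct clonotype counted once. Of 8 such measures, 0 passed an exact two-sided permutation test over the 252 assignments of libraries to groups after Benjamini-Hochberg adjustment, and 0 had an unadjusted p below 0.05; the smallest p this design allows is 0.00794. CDR3 length gave the smallest p. Its library means were 13.8, 13.7, 13.7, 13.6 and 13.7 residues in CNS4KO 1 to 5 and 13.6, 13.6, 13.7, 13.7 and 13.6 in CNS4Flox 1 to 5. The group means of 13.72 ± 0.0778 and 13.64 ± 0.0378 residues (SD, n = 5 each) differed by 0.0759 residues (exact p = 0.0873, adjusted p = 0.667).

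CNS4KO clonotypes averaged 3.20 ± 0.116 inserted bases and CNS4Flox clonotypes 3.11 ± 0.114 (SD, n = 5 each, exact permutation adjusted p = 0.720). Clonotypes with no inserted base were 15.6% ± 0.866 and 14.6% ± 1.10, and V bases kept in the CDR3 averaged 13.1 ± 0.109 and 13.1 ± 0.0948 (SD, n = 5 each). TRBD2 was named in 23.6% ± 2.96 and 23.5% ± 1.49 of the clonotypes with a D call, and TRBJ2 genes in 64.4% ± 2.62 and 64.1% ± 1.06 of all (SD, n = 5 each). Paired hydrophobic residues at CDR3 positions 6 and 7, counting the first cysteine as 1, a feature linked in earlier work to self-reactive receptors, were found in 1.05% ± 0.709 and 1.25% ± 0.230 of TRBV29 clonotypes (SD, n = 5 each). The ranges of the groups overlapped in each of these 6 measures. For 7 measures the CNS4KO difference in TRBV29 was also set against that in the other TRBV genes of the same libraries; 0 of 7 passed, and 1, CDR3 length, had an unadjusted p below 0.05 (difference 0.0684 residues, exact permutation p = 0.0317, adjusted p = 0.222).

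Against the other TRBV genes of the same library, TRBV29 rearrangements differed in 6 of 7 measures by an exact two-sided sign-flip permutation test over the 10 libraries, in which the smallest possible p is 0.00195. More bases had been inserted. Here and for clonotypes with no inserted base, the D match was taken to end 1 base past its listed end. That placement can undercount inserted bases, in TRBV29 and in the other genes. The mean was 3.02, 3.26, 3.21, 3.33 and 3.17 inserted bases in CNS4KO 1 to 5 and 3.12, 3.03, 3.09, 3.02 and 3.30 in CNS4Flox 1 to 5, against 2.79 to 2.97 in the other TRBV genes. Every library's TRBV29 value lay above all 10 values of the other genes, each of which pools the other TRBV genes of a library. Gene by gene over all libraries pooled, TRBV29 ranked 19 of 22 from the lowest, with 3 genes higher, up to TRBV24 at 3.92 bases. The means were 3.15 ± 0.117 and 2.87 ± 0.0483 bases, a difference of 0.283 in the same direction in 10 of 10 libraries (SD, n = 10, exact permutation p = 0.00195, adjusted p = 0.00273), and 0.288 without CNS4KO 5 and CNS4Flox 3.

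Clonotypes with no inserted base were fewer, 15.1% ± 1.06 of TRBV29 clonotypes against 17.1% ± 0.488 of the others, and lower in 10 of 10 libraries (SD, n = 10, exact permutation adjusted p = 0.00273). With clonotypes weighted by their counts this difference was -1.89 percentage points and did not pass (adjusted p = 0.205). TRBV29 kept 13.1 ± 0.0976 V bases in the CDR3 against 13.6 ± 0.0255, lower in 10 of 10 libraries (SD, n = 10, exact permutation adjusted p = 0.00273), a measure that also depends on each V gene's germline end. The CDR3 was shorter by 0.0464 residues, in 8 of 10 libraries (exact permutation adjusted p = 0.0387). This last call was lost when any of 8 of the 10 libraries was left out (adjusted p 0.0501 to 0.0775 in those 8 fits), and was kept without CNS4KO 1 (0.00911) and without CNS4KO 3 (0.0365). It was also lost without both CNS4KO 5 and CNS4Flox 3 (adjusted p = 0.0820), and among clonotypes with a count of at least 2 (-0.0246 residues, adjusted p = 0.779). Against the single TRBV genes, TRBV29 was in the middle of the range for V bases kept (rank 8 of 22 from the lowest) and for CDR3 length (rank 10), and ranked 4 for clonotypes with no inserted base. Paired hydrophobic residues, the measure that did not pass, were found in 1.15% ± 0.508 against 1.34% ± 0.0517 (SD, n = 10, exact permutation p = 0.256).

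Among these shares, the widest gap in percentage points between TRBV29 and the other TRBV genes was in the D segment. TRBD2 was named in 28.2%, 20.5%, 22.6%, 24.5% and 22.0% of TRBV29 clonotypes with a D call in CNS4KO 1 to 5 and in 22.6%, 22.2%, 23.6%, 23.2% and 26.0% in CNS4Flox 1 to 5. In the other TRBV genes the share lay between 35.0% and 36.4%, so no library of either kind overlapped with the other. The means were 23.5% ± 2.21 and 35.9% ± 0.475, a difference of -12.4 percentage points in 10 of 10 libraries (SD, n = 10, exact permutation p = 0.00195, adjusted p = 0.00273). Without CNS4KO 5 and CNS4Flox 3 the difference was -12.2 percentage points.

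The lower TRBD2 share was seen among TRBJ2 clonotypes. There TRBD2 was named in 31.3% ± 2.46 of TRBV29 clonotypes and in 48.3% ± 0.624 of the others (SD, n = 10), lower in 10 of 10 libraries. Of 22 TRBV genes, TRBV29 was the second lowest on this value over all libraries pooled, at 31.2%, after TRBV26 at 30.7%, and TRBV4 was the highest at 58.1%. Among TRBJ1 clonotypes, where TRBD2 is not ordinarily used, the shares were 9.51% ± 2.86 and 8.72% ± 0.349 (SD, n = 10), lower for TRBV29 in 4 of 10 libraries. The D remnant is short and the D genes are alike, so the comparison was repeated on clonotypes whose D match spanned at least 6 bases, a limit chosen after seeing the data. TRBD2 was then named in 37.1% ± 3.11 of TRBV29 clonotypes with a TRBJ2 gene and in 58.2% ± 0.761 of the others (SD, n = 10), lower in 10 of 10 libraries.

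**Figure D4:**
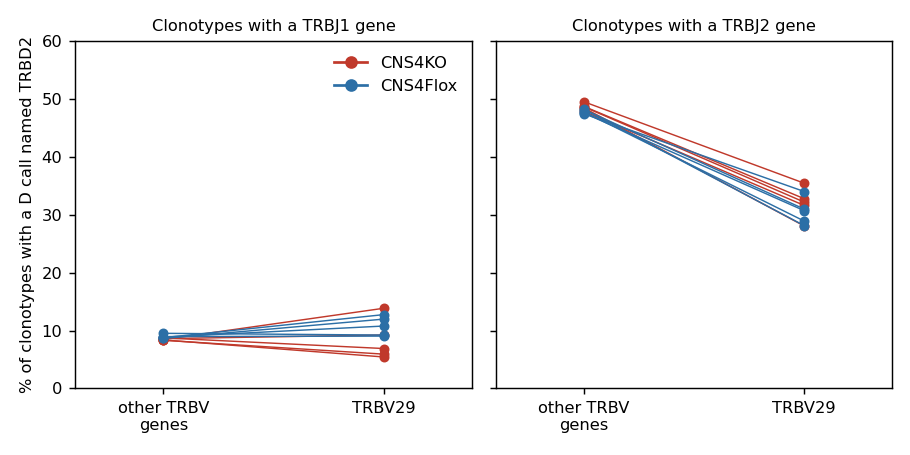
Percentage of clonotypes with a D call that were named TRBD2, for the other TRBV genes and for TRBV29 in the same library (lines join the values of a library; CNS4KO red, CNS4Flox blue), among clonotypes with a TRBJ1 gene (left) and a TRBJ2 gene (right). With TRBJ2 genes every line falls, from 47.5% to 49.6% down to 28.1% to 35.5%, and with TRBJ1 genes the lines run in both directions.

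J gene pairing of TRBV29 also differed from that of the other TRBV genes pooled. TRBJ2 genes were used by 64.3% ± 1.89 of TRBV29 clonotypes and 68.5% ± 0.983 of the others, lower in 10 of 10 libraries (SD, n = 10, exact permutation adjusted p = 0.00273). Gene by gene over all libraries pooled, TRBV29 was the fifth lowest of 22 TRBV genes in TRBJ2 use, within a range from 60.1% (TRBV24) to 79.1% (TRBV17). The J genes used most by TRBV29 were TRBJ2-7 (18.1% ± 1.26 of distinct clonotypes), TRBJ2-5 (15.9% ± 1.68) and TRBJ2-1 (9.22% ± 1.02; SD, n = 10). Of the 12 TRBJ genes, 9 (75%) differed from their share among the other TRBV genes by the sign-flip test with adjustment over the 12, 5 being higher and 4 lower in TRBV29. The same count is not given here for other single TRBV genes, so it is not shown to be particular to TRBV29. Shares of a whole are bound to each other, so a higher J gene lowers the rest.

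The higher genes were TRBJ2-5 and 4 genes of the TRBJ1 cluster. TRBJ2-5 was used by 15.8%, 16.4%, 14.3%, 18.4% and 15.5% of TRBV29 clonotypes in CNS4KO 1 to 5 and by 17.3%, 13.1%, 18.0%, 15.0% and 14.7% in CNS4Flox 1 to 5, above the other TRBV genes of the same library in all 10 (15.9% against 12.7%, exact permutation adjusted p = 0.00391). TRBJ1-5 had the largest ratio, with 5.02% ± 0.952 against 2.73% ± 0.132 (SD, n = 10, adjusted p = 0.00391, exact permutation). TRBJ1-2 was used by 5.67% against 4.42% and TRBJ1-3 by 7.02% against 5.48%, both higher in 10 of 10 libraries (exact permutation adjusted p = 0.00391 each). TRBJ1-4 was used by 7.69% against 5.90% and was higher in 9 of 10 libraries, CNS4KO 4 being the exception (exact permutation adjusted p = 0.0167).

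The lower genes were TRBJ2-4, TRBJ1-1, TRBJ2-7 and TRBJ2-1. TRBJ2-4 was used by 8.29% ± 1.27 of TRBV29 clonotypes against 11.9% ± 0.432 of the others, and TRBJ1-1 by 6.80% ± 1.24 against 9.38% ± 0.494 (SD, n = 10, exact permutation adjusted p = 0.00391 each, lower in 10 of 10 libraries). TRBJ2-7, although the leading J gene, was used less than in the other TRBV genes (18.1% against 19.7%, adjusted p = 0.0234), as was TRBJ2-1 (9.22% against 10.5%, adjusted p = 0.0205; exact permutation, 8 of 10 libraries each). With clonotypes weighted by counts, 6 of the 12 genes passed, and TRBJ1-4, TRBJ2-4 and TRBJ2-7 did not (adjusted p = 0.0996, 0.0904 and 0.193). Without both CNS4KO 5 and CNS4Flox 3, 7 passed, and TRBJ2-1 and TRBJ2-7 did not (adjusted p = 0.0820 and 0.0938). TRBJ1-6, TRBJ2-2 and TRBJ2-3 did not pass. Without CNS4KO 1, where TRBJ2-3 use was highest at 11.1%, the TRBJ2-3 difference went from -0.701 to -1.06 percentage points and passed (exact permutation adjusted p = 0.0422), making 10 genes.

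**Figure D5:**
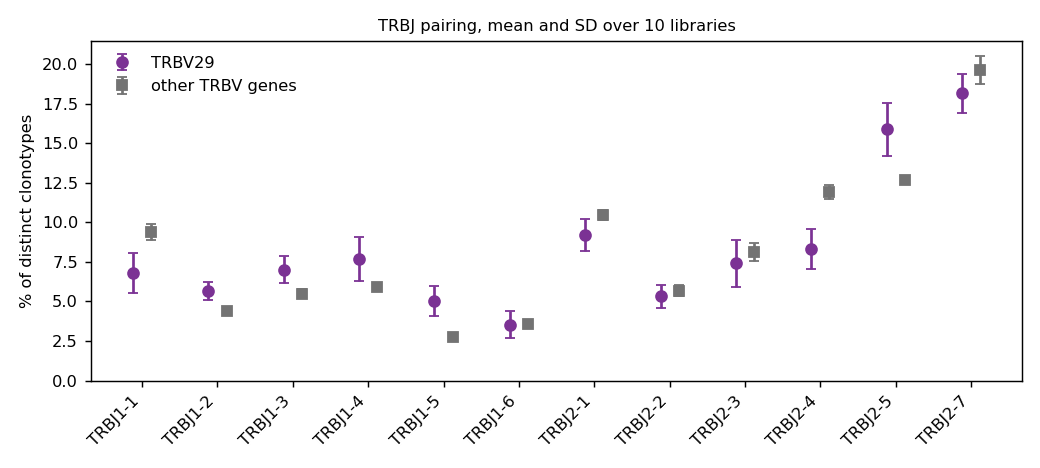
Percentage of distinct clonotypes that used each TRBJ gene, for TRBV29 (circles) and for the other TRBV genes (squares), as mean and SD over 10 libraries. TRBV29 lies above the other genes for TRBJ2-5 (15.9% against 12.7%) and TRBJ1-5 (5.02% against 2.73%) and below them for TRBJ2-4 (8.29% against 11.9%) and TRBJ1-1 (6.80% against 9.38%).

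Within TRBV29, J pairing was then compared between CNS4KO and CNS4Flox, in an edgeR quasi-likelihood fit over all V-J pairs in which the size of each V gene was held fixed. Of 249 pairs tested, 1 (0.402%) was called. Of the 12 TRBV29 pairs, 0 were called in edgeR, 0 in DESeq2, and 0 had an unadjusted p below 0.05 in edgeR. The smallest p was that of TRBJ1-2, which TRBV29 clonotypes used in 5.53%, 6.37%, 6.29%, 6.19% and 6.32% of CNS4KO 1 to 5 and in 5.40%, 4.99%, 5.41%, 5.24% and 4.97% of CNS4Flox 1 to 5. These groups did not overlap, and the means were 6.14% ± 0.346 and 5.20% ± 0.214 (SD, n = 5 each). In edgeR, with Benjamini-Hochberg adjustment, the log2 fold change was 0.24 (SE 0.15, adjusted p = 0.956). Each value rested on 26 to 45 clonotypes. By counts in place of distinct clonotypes, the TRBJ1-2 log2 fold change was 0.89 (edgeR unadjusted p = 0.0332, adjusted p = 0.780), and the clonotype of 207 counts in CNS4KO 4 uses TRBJ1-2. By counts this was the 1 TRBV29 pair with an unadjusted p below 0.05, and 0 were called. Groups that did not overlap were found for this 1 of the 12 TRBV29 pairs and for 2 of all 249 (0.803%). TRBJ1-1, the next by p, had a log2 fold change of -0.16 (SE 0.14, edgeR adjusted p = 0.961).

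The other TRBV genes of the lists that hold TRBV29 were fitted by distinct clonotypes in edgeR, where 3 of 22 TRBV genes (13.6%) were called. TRBV29 was chosen from this contrast, so no test of it is given. TRBV1 (Vbeta2) and TRBV13-2 (Vbeta8.2), which with TRBV29 make up the usual invariant NKT beta chains, had log2 fold changes of -0.03 (SE 0.08, adjusted p = 0.757) and 0.08 (SE 0.08, adjusted p = 0.499 in edgeR). The Mls-1a list held TRBV19 (Vbeta6), at 0.04 (SE 0.11, adjusted p = 0.794), TRBV13-3 (Vbeta8.1), at -0.01 (SE 0.10, adjusted p = 0.908), and TRBV17 (Vbeta9), at -0.20 (SE 0.12, adjusted p = 0.397 in edgeR). Of these 5 genes, 0 passed in edgeR, 0 had an unadjusted p below 0.05 there, and 0 passed in DESeq2. The signs of TRBV13-2 (by counts), TRBV1 (with TMM scaling) and TRBV13-3 (with TMM scaling or DESeq2) turned.

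Over the 10 libraries, the genes whose share of distinct clonotypes ran most like that of TRBV29 were TRBV30 (Pearson r = 0.73), TRBV14 (0.72) and TRBV23 (0.56), as a description over libraries that share the group difference and whose shares sum to a fixed total. TRBV30 made up 0.995% ± 0.118 of distinct clonotypes in CNS4KO against 1.16% ± 0.0336 in CNS4Flox, TRBV14 1.67% ± 0.118 and 1.92% ± 0.0857, and TRBV23 1.89% ± 0.154 and 2.01% ± 0.153 (SD, n = 5 each).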

How the data were processed

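Receptor transcripts were sequenced from total RNA of spleen regulatory T cells after reverse transcription with TCR primers and a template switch, per the labels' protocols. The authors deposited a clonotype table per library with a count and its fraction of the library, CDR3 sequences, V, D and J names and segment positions, per the file headers. The build mm10 is named in the submitters' processing notes; the aligner, the clonotype caller and whether counts are reads or molecules are not given in the sources used here. Only TRB entries with a beta J end were used, with the PLYF end set apart as TRBJ1-6. A clonotype was a V, J and CDR3 nucleotide sequence. Inserted bases were those outside the V, D and J matches. The end of the D match was placed 1 base past its listed position, from the spacing seen in the tables. This placement was not checked against the D gene sequences, so inserted bases can be undercounted and clonotypes with no inserted base overcounted. Wilson intervals came from SciPy 1.17.1. Group measures used exact permutation tests over libraries, library-internal contrasts used sign-flip tests, and counts of clonotypes used edgeR 4.0.16 (DESeq2 1.42.0 as alternative) over all V-J pairs with at least 10 clonotypes in at least 5 libraries, all clonotypes in at least 5 libraries or all TRBV genes, adjusted by Benjamini-Hochberg at 0.05. Tests were run on simulated data with large built-in changes, so their power for small differences or low counts was not measured. Replicate numbers are in accession order. J genes were named if among the 3 most used, past the threshold, or otherwise of the 2 smallest p; clonotypes if among the 6 most shared or the largest of a library; TRBV genes if on the lists or among the 3 most alike. The members and lists were chosen with earlier results of these data known. Alternatives were amino acid clonotypes, a count minimum of 2, count weighting, thinning, other overlap indices, scalings and filters, and leaving out libraries.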

Additional observations from a re-analysis of the deposited data

Results flagged for a closer look

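Of 52 groups of 5 values examined, 3 had a library far from the other 4, past Dixon's critical value of 0.71, and chance flags about 1 group in 20. The 10 largest TRBV29 clonotypes held 15.4% of TRBV29 counts in CNS4Flox 3, against at most 7.05% in the other CNS4Flox libraries. TRBJ1-2 was used by 5.53% of TRBV29 clonotypes in CNS4KO 1, against 6.19% to 6.37% in the other CNS4KO libraries. TRBJ1-4 was used by 5.18% of TRBV29 clonotypes in CNS4KO 4, against 8.10% to 9.04% in the other CNS4KO libraries. Outside the comparisons, 506 entries were named TRBV29 but had a CDR3 without a beta J end.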

How the results depend on the processing

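No paired analysis was possible because the labels give the libraries no shared replicate numbers. Among clonotypes with a count of at least 2, the CNS4KO minus CNS4Flox difference of TRBV29 was -0.736 percentage points of TRB counts, -0.890 of distinct clonotypes and 0.783 counts per clonotype, the differences keeping their direction, and CDR3 length against the other genes came to -0.0246 residues and did not pass. Under the same minimum, directions turned for TRBD2 (-1.72) and TRBJ2 (-2.89) in CNS4KO against CNS4Flox, for the TRBJ2 difference against other genes (-2.19) and for paired hydrophobic residues against other genes (0.139); none of these 4 passed in either setting. Weighted by counts, CDR3 length against other genes was -0.0197 residues and clonotypes with no inserted base -1.89 points, neither passing, and directions turned for TRBD2 (-1.76), TRBJ2 (-0.877) and inserted bases (-0.00291) between the groups and for the inserted-base effect against other genes (-0.0314). The TRBD2 effect against other genes turned with a D match of at least 6 bases (0.545), added after seeing the data, and without both CNS4KO 5 and CNS4Flox 3 (0.0315), where CDR3 length against other genes was -0.0488 and did not pass. The overlap difference by nucleotide clonotypes was 0.000683. Values near 0 that turned, as log2 fold changes, were by counts TRBJ1-5 (-0.24), TRBJ2-1 (-0.038), TRBJ2-3 (-0.044), TRBJ2-4 (0.39) and TRBV13-2 (-0.093), without both libraries TRBJ1-4 (-0.11) and TRBJ1-5 (-0.041), with TMM TRBV1 (0.0069) and TRBV13-3 (0.028), and with DESeq2 TRBV13-3 (0.0049). The cause was not tested.

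Leaving out each library in turn gave CDR3 length against other genes from -0.0591 to -0.0372 residues, no longer passing in 8 of 10 fits. It turned the sign, in results that did not pass, of TRBD2 between groups (-1.13 to 0.796), the TRBD2 effect against other genes (-1.22 to 0.652), TRBJ2 between groups (-0.286 to 1.19), V bases between groups (-0.0666 to 0.00821), overlap (-0.00205 to 0.000155), TRBJ1-6 against other genes (-0.191 to 0.141), the pairing of TRBJ1-4 (-0.071 to 0.15), TRBJ1-5 (-0.12 to 0.11), TRBJ2-3 (-0.018 to 0.26), TRBJ2-4 (-0.12 to 0.044) and TRBJ2-5 (-0.029 to 0.11), and TRBV1 (-0.094 to 0.0046), TRBV13-3 (-0.10 to 0.042) and TRBV19 (-0.015 to 0.13). In the same fits the differences from other genes in inserted bases, V bases, TRBD2, TRBJ2 and clonotypes with no insertion passed throughout. With 408 to 862 TRBV29 clonotypes per library, the pairing with a J gene rests on small numbers of clonotypes, and each shared clonotype on a few counts.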
